A study of Mus musculus with 4 samples.

Results

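The genes described here encode receptors and partners with which macrophages sense and take up microbial material: the Toll-like receptor Tlr6, the coreceptor Cd14, the receptor pair Cd180 and Ly86, the adaptor Myd88, and the class A scavenger receptors Msr1 and Marco. Probe sets were taken by exact gene symbol. Of 10 symbols looked up in the platform annotation, 7 were held, with 8 probe sets among the 12488 of the array, and Tlr2, Tlr4 and Ly96 were not analysed here. Expression was measured with 2 arrays of cells treated with TGFb2 and 2 arrays of cells given PBS, its vehicle. Both groups were thioglycolate-elicited peritoneal exudate cells of female BALB/c mice aged 6 to 8 weeks, harvested 4 days after an intraperitoneal injection of 2 ml of 3% thioglycolate. All cells spent the night in serum-free medium, and porcine TGFb2 was given at 5 ng, with no volume stated. RNA came from the adherent cells, of which over 95% carried the macrophage antigen F4/80 per the labels. The labels do not say whether replicates came from separate cultures or mice, or whether mice were pooled, so p-values rest on the variation among these arrays alone, and that may be technical.

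Toll-like receptors are membrane proteins with leucine-rich repeats that bind microbial products and signal through adaptors to NF-kB and mitogen-activated kinases. Cd14 passes lipopolysaccharide and other ligands to Tlr4 and Tlr2 complexes, Tlr6 pairs with Tlr2 to recognise diacylated lipopeptides, and Myd88 links most receptors of the family to their kinases. Cd180 is a Toll-like receptor homologue without a signalling domain of that kind, and it reaches the surface bound to Ly86, also called MD-1. Msr1 and Marco are collagen-like trimers that bind modified lipoproteins and bacteria and serve in phagocytosis. Transforming growth factor beta is known as a suppressor of macrophage activation, and the series describes the treated cells as tolerogenic.

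None of the tested members passed the threshold. On the scale of log2(signal + 15), the intervals of their changes all lay within a 2-fold difference in either direction. Only probe sets with a mean level at or above a signal of about 24.0, the 40th percentile, were tested. They included 7 member probe sets of 6 genes, of which 0 rose and 0 fell at an adjusted p of 0.05 in limma with Benjamini-Hochberg adjustment over 7453 probe sets. Over all of those probe sets 1.18% passed, 0.818% higher and 0.362% lower with TGFb2, so a count of 0 among 7 does not set the members apart. At an unadjusted p of 0.05 the count was 1 of 7, against 11.6% of all tested probe sets. Differences are given on the scale of log2(signal + 15), where the signal is the deposited linear intensity, and they run from -0.37 for Cd180 to 0.52 for the brighter probe set of Msr1. The median of the 7 was 0.29, and that of all tested probe sets was -0.00082. In bulk RNA, fewer cells of a type and less RNA per cell cannot be told apart.

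**Figure D1:**
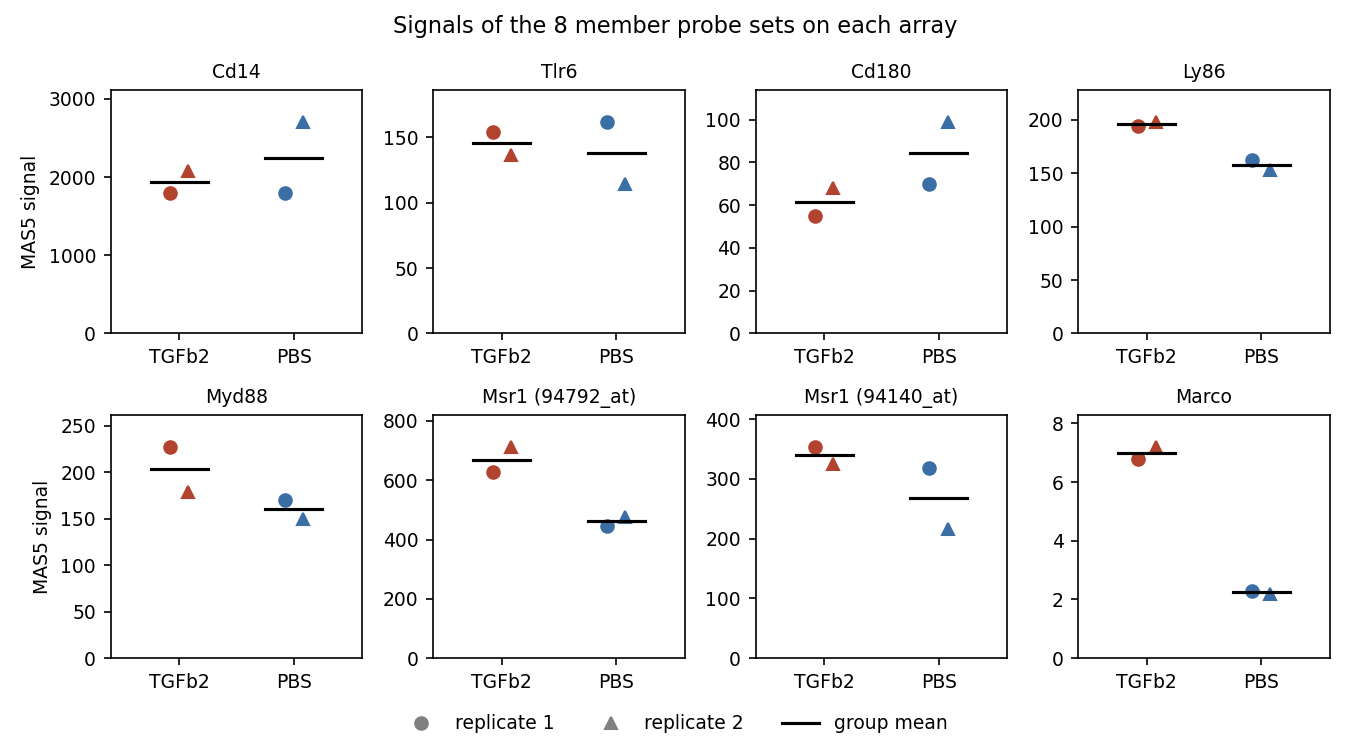
MAS5 signal (linear intensity, vertical axis from 0, a separate scale per panel) of each member probe set on the 4 arrays, with TGFb2 at the left and PBS at the right of each panel, circles for replicate 1, triangles for replicate 2 and bars for group means. Groups overlap for Cd14 and Tlr6, Cd180 is lower on both TGFb2 arrays, and Ly86, Myd88 and Msr1 are higher; Marco stays below 8 on every array.

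Cd14, the coreceptor anchored in the membrane by a lipid, was the brightest member, with a mean signal above 98.0% of the probe sets. Its signals were 1793 and 2079 on the TGFb2 arrays, against 1798.5 and 2702 on the PBS arrays. The groups overlapped, since the lower PBS array was close to the lower TGFb2 array and only PBS replicate 2 stood above the others. The log2 difference was -0.19 ± 0.20 (SE, limma adjusted p = 0.77), and its 95% interval ran from 0.637-fold to 1.21-fold. Without PBS replicate 2 the difference was 0.10, and without PBS replicate 1 it was -0.48.

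Tlr6 had signals of 154 and 137 with TGFb2 and of 162 and 114.5 with PBS. Both TGFb2 values lay between the PBS values. The log2 difference of 0.08 ± 0.21 (SE, limma adjusted p = 0.92) was the smallest in size among the tested members, with an interval from 0.756-fold to 1.49-fold. Its sign turned to -0.14 without PBS replicate 2. Among other receptors of the family on the lists used here, Tlr7, a sensor of single-stranded RNA, was the only one with a probe set, and it was picked out after its values were seen. Tlr7 had signals of 30.3 and 20.5 with TGFb2 and of 22.9 and 23.5 with PBS, close to the filter level, and a log2 difference of 0.07 ± 0.29 (SE, limma adjusted p = 0.96).

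The partners Cd180 and Ly86 lay on opposite sides of 0. Cd180 had signals of 54.9 and 67.9 with TGFb2 and of 69.8 and 98.8 with PBS. Both TGFb2 arrays were below both PBS arrays, but the upper TGFb2 value and the lower PBS value differed by less than either pair of replicates did. The log2 difference was -0.37 ± 0.23 (SE, limma adjusted p = 0.61), with an interval from 0.536-fold to 1.12-fold. It ran from -0.58 without PBS replicate 1 to -0.16 without PBS replicate 2.

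Ly86, the small subunit that Cd180 needs at the surface, had signals of 194 and 198 with TGFb2 and of 162 and 153 with PBS. The groups did not overlap, and the replicates were close together: 96.0% of tested probe sets had a larger spread within groups. The log2 difference was 0.29 ± 0.17 (SE, limma adjusted p = 0.57), with an interval from 0.933-fold to 1.61-fold. It varied little when an array was left out, from 0.25 to 0.33. The change of Ly86 exceeded that of Cd180 by 0.66 on the log2 scale, and the exact two-sided permutation test of this difference over the 4 arrays gave p = 0.333, the smallest value that 2 arrays against 2 can give. This was 1 of 2 such comparisons, and the p adjusted over both was 0.667.

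Myd88 had signals of 227 and 179 with TGFb2 and of 170.3 and 149.9 with PBS. The groups did not overlap, although TGFb2 replicate 2 was nearer to PBS replicate 1 than to the other TGFb2 array. The log2 difference was 0.31 ± 0.19 (SE, limma adjusted p = 0.61), with an interval from 0.911-fold to 1.69-fold. Leaving out TGFb2 replicate 1 gave 0.15 and leaving out TGFb2 replicate 2 gave 0.47.

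**Figure D2:**
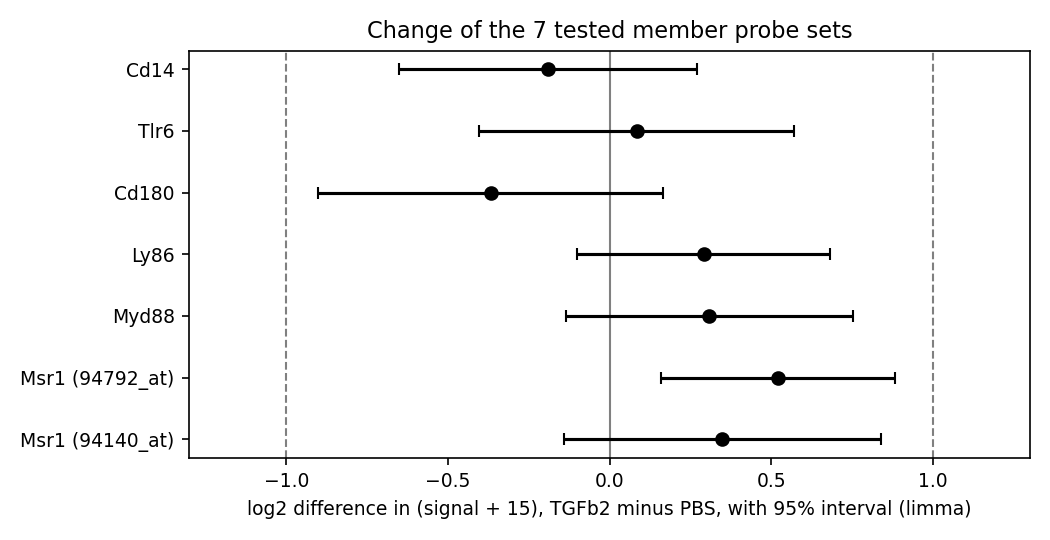
Log2 difference of signal + 15, TGFb2 minus PBS, for the 7 tested member probe sets (points) with 95% intervals from limma (bars, n = 2 arrays per group); the solid line marks 0 and the dashed lines a 2-fold change. Every interval stays between the dashed lines, and that of the brighter Msr1 probe set, 0.16 to 0.88, is the one that leaves out 0.

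Msr1, also known as scavenger receptor A, was measured by a brighter and a dimmer probe set, both above the PBS level on both TGFb2 arrays. The brighter one had signals of 627 and 712 with TGFb2 and of 447 and 477 with PBS. These groups were well apart relative to their replicates. The means were 669.8 ± 60.2 with TGFb2 and 462 ± 21.6 with PBS (SD, n = 2 arrays each), and the log2 difference was 0.52 ± 0.16 (SE), or 1.43-fold with an interval from 1.12-fold to 1.84-fold. This was the member with an unadjusted limma p under 0.05 (0.0109), and its adjusted p was 0.23. Of all tested probe sets, 11.2% had a larger difference in size.

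The dimmer Msr1 probe set had signals of 353.5 and 325 with TGFb2 and of 319 and 216 with PBS. PBS replicate 1 lay just under the lower TGFb2 array, so the separation rested mostly on PBS replicate 2. The log2 difference was 0.35 ± 0.21 (SE, limma adjusted p = 0.60), and it was 0.08 without PBS replicate 2 and 0.61 without PBS replicate 1. The changes of the Msr1 probe sets differed from each other by 0.17 on the log2 scale (exact permutation p over the 4 arrays = 0.667, adjusted over both comparisons 0.667). For the brighter probe set the difference stayed between 0.43 and 0.61 when an array was left out, with unadjusted p from 0.0140 without TGFb2 replicate 1 to 0.0637 without PBS replicate 1.

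Marco, the collagen-like receptor found on selected macrophage populations, was the member below this filter level. Its signals were 6.80 and 7.20 with TGFb2 and 2.30 and 2.20 with PBS. The TGFb2 arrays were higher, yet only 11.9% of the probe sets on the array were dimmer on average, so it was not tested and no fold is given. With the filter removed its log2 difference was 0.35 (limma adjusted p = 0.49), on a scale whose added constant of 15 exceeds its signals. Detection calls were not used here, and a transcript present at this level cannot be told from none.

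Across the tested members the groups did not overlap for 5 of 7 probe sets, 4 higher and 1 lower with TGFb2, against 42.8% of all tested probe sets, 21.1% higher and 21.7% lower. The difference was larger than the wider of the replicate gaps for 2 of 7, Ly86 and the brighter Msr1 probe set, against 29.3% of all tested probe sets. In 5 of 7 the PBS arrays were farther apart than the TGFb2 arrays, by up to 0.58 on the log2 scale for Cd14. All 7 differences lay inside the 5th to 95th percentile of the tested probe sets, -0.55 to 0.56. Intervals within a 2-fold change were found for 7 of 7 members and for 82.8% of all tested probe sets. With no added constant the members' count was 6, and the lower end for Cd180 was 0.47-fold. These are intervals of single probe sets, and the count fell to 4 when PBS replicate 1 was left out, to 6 when PBS replicate 2 was, to 5 when TGFb2 replicate 2 was and to 6 when TGFb2 replicate 1 was.

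**Figure D3:**
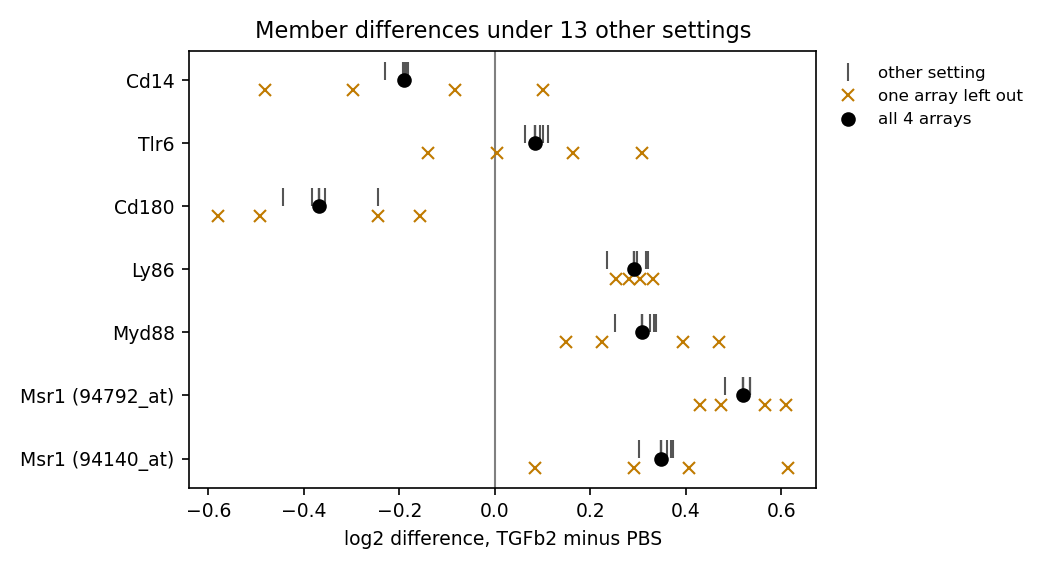
Log2 difference, TGFb2 minus PBS, of each tested member probe set with all 4 arrays (circles), with an array left out (crosses) and under the other settings (ticks), 13 alternatives in all. The crosses spread most for Cd14, from -0.48 to 0.10, and the dimmer Msr1 probe set, from 0.08 to 0.61, and those of Ly86 stay between 0.25 and 0.33.

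Genes of the same pathway outside the members gave 2 calls, both lower with TGFb2. Of 69 tested genes on 6 lists of receptors, adaptors, regulators and targets, each taken by its brightest tested probe set, 0 rose, 2 fell and 67 did not pass. These 2.90% stand against 1.18% of all tested probe sets, and 0.362% lower. At an unadjusted limma p under 0.05 there were 15 genes, or 21.7% against 11.6% of all tested probe sets. Of the 15, 12 were lower with TGFb2, while the 11.6% counts both directions. The lists were chosen with earlier results of these data known. The median log2 difference of all 69 tested pathway genes was -0.03. The genes that fell were Cd36 and Cxcl2.

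Cd36, a class B scavenger receptor that also presents ligands to the pair of Tlr2 and Tlr6, had signals of 93.2 and 96.3 with TGFb2 and of 234 and 207 with PBS. Both TGFb2 arrays were far below both PBS arrays. The log2 difference was -1.10 ± 0.18 (SE, limma adjusted p = 0.0393), so this receptor fell by more than any tested member differed. A second Cd36 probe set was below the filter. The call was lost when any array was left out, with adjusted p from 0.0895 without TGFb2 replicate 2 to 0.195 without PBS replicate 1 (0.133 without TGFb2 replicate 1, 0.128 without PBS replicate 2), while the difference stayed between -1.18 and -1.02. Among the 12 tested scavenger and pattern recognition receptors other than the members, of 17 with a probe set, Cd36 fell, 0 rose and 11 did not pass, with a median difference of 0.07. At an unadjusted limma p under 0.05 there were 4 of 12 (33.3%), against 11.6% of all tested probe sets. Olr1, a scavenger receptor named after its values were seen, had a mean below the filter and was not tested. Its signals were higher with TGFb2, at 44.6 and 43.1, against 7.7 and 1.3 with PBS. Mrc2, an endocytic collagen receptor named after its values were seen, had signals of 13 and 7.30 with TGFb2 and of 62.8 and 38.6 with PBS, a log2 difference of -1.37 (limma adjusted p = 0.11).

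Cxcl2, a neutrophil chemoattractant that Toll-like receptor ligands induce, had signals of 28.7 and 22.8 with TGFb2 and of 91.7 and 88.3 with PBS. Its log2 difference was -1.37 ± 0.22 (SE, limma adjusted p = 0.0397). The TGFb2 level lay close to the filter level, so the size depends on the added constant, from -1.81 without it to -0.81 with 4 times as much. Without an array the adjusted p was 0.206 (PBS replicate 1), 0.204 (PBS replicate 2), 0.0914 (TGFb2 replicate 1) and 0.0867 (TGFb2 replicate 2). Of the 26 inducible targets with a probe set, 10 lay below the filter, and of the 16 tested Cxcl2 fell, 0 rose and 15 did not pass, with a median of -0.10. At an unadjusted limma p under 0.05 there were 5 of 16 (31.2%), against 11.6% of all tested probe sets. The chemokine Cxcl1, named after its values were seen, had signals of 148 and 74.1 with TGFb2 and of 423 and 256 with PBS. On the scale of log2(signal + 15) its difference was -1.52 (limma adjusted p = 0.094).

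Signalling genes between receptor and target gave no call. Of 17 tested adaptors and kinases 0 passed, with a median of -0.03. An unadjusted limma p under 0.05 was found for 1 (5.88%), against 11.6% of all tested probe sets. Irf5, a transcription factor that acts downstream of Myd88, had signals of 439 and 522 with TGFb2 and of 748 and 703.5 with PBS, a log2 difference of -0.59 (limma adjusted p = 0.18). Mapk14, the p38 alpha kinase, had signals of 316 and 403 with TGFb2 and of 519 and 445 with PBS (-0.41, limma adjusted p = 0.44), from a probe set that can share probes with related sequences.

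Of 6 tested cofactors and other receptors 0 passed, with a median of 0.07. An unadjusted limma p under 0.05 was found for 2 (33.3%), against 11.6% of all tested probe sets. These 2 were Itgam and Unc93b1. Itgam, the integrin chain CD11b, had signals of 672 and 758 with TGFb2 and of 521 and 346 with PBS (0.73, limma adjusted p = 0.22). Unc93b1, which carries nucleic acid sensing receptors to endosomes, had signals of 172 and 208 with TGFb2 and of 307 and 318 with PBS (-0.68, limma adjusted p = 0.16).

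In the fit used for the members, negative regulators of the pathway gave no call. Of 14 tested 0 passed, with a median of -0.03. An unadjusted limma p under 0.05 was found for 3 (21.4%), against 11.6% of all tested probe sets. The 3 were Dok2 and Dusp1, lower with TGFb2, and Inpp5d, higher and named after its values were seen. Inpp5d had signals of 268 and 256 with TGFb2 and of 194 and 169 with PBS (0.50, limma adjusted p = 0.30). Dok2, an adaptor that dampens kinase signalling, had signals of 112 and 134 with TGFb2 and of 249 and 262 with PBS, a log2 difference of -0.98 (limma adjusted p = 0.054). Dusp1, the phosphatase that switches off mitogen-activated kinases, had signals of 355 and 268 with TGFb2 and of 778 and 553 with PBS (-1.05, limma adjusted p = 0.079). Both genes had lower signals on each TGFb2 array than on each PBS array. Dok2 passed with the filter at the 60th percentile (limma adjusted p = 0.048) and with a robust variance (0.047). Of 5 genes on the NF-kB list with a probe set, 1 lay below the filter. Of the 4 tested 0 passed, and 0 at an unadjusted limma p under 0.05, with differences from -0.05 for Relb to 0.02. The groups overlapped for all 4. Relb had signals of 101 and 132 with TGFb2 and of 98.2 and 146 with PBS, and Nfkb2 of 71.3 and 83.5 with TGFb2 and of 76.2 and 82.9 with PBS, and both changed sign when an array was left out.

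**Figure D4:**
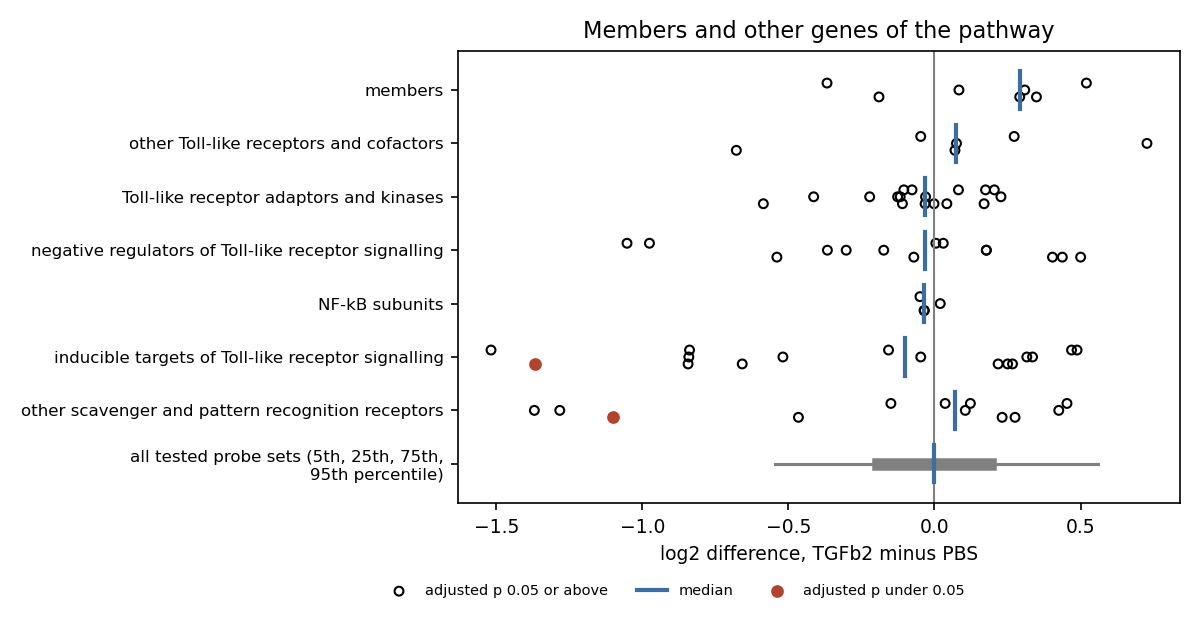
Log2 difference, TGFb2 minus PBS, of the tested members and of the tested genes on 6 lists of the pathway (open circles, adjusted p of 0.05 or above; filled circles, under 0.05), with list medians as bars; the bottom row gives the median and the 5th, 25th, 75th and 95th percentiles of all 7453 tested probe sets. Filled circles mark Cxcl2 at -1.37 and Cd36 at -1.10.

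The labelled cell type was checked against markers. All 10 macrophage markers, Cd14 and Itgam among them, were above the filter. Their summed signals were 33271 and 32904 on the TGFb2 arrays and 30130 and 29919 on the PBS arrays. Of the 10, 0 passed, and 7 were higher and 3 lower with TGFb2. An unadjusted limma p under 0.05 was found for 4 (40%), against 11.6% of all tested probe sets. These 4 were higher with TGFb2, by 0.55 to 1.13 on the log2 scale. The F4/80 gene Adgre1 had signals of 471 and 748 with TGFb2 and of 488 and 780 with PBS. Markers of B cells, T and NK cells, mast cells and eosinophils reached a signal of at most 274 on any array, and 0 of the 11 tested passed, with 1 at an unadjusted limma p under 0.05. Of 3 tested dendritic cell markers 0 passed, with 1 at an unadjusted limma p under 0.05 and summed signals of 1401 and 1478 with TGFb2 and of 1597 and 1533 with PBS over 5 markers. Of 4 tested neutrophil markers S100a8 rose, at 551 and 679 with TGFb2 and 129 and 211 with PBS (limma adjusted p = 0.0241), and the summed signal of the 10 with a probe set was 931 and 1047 with TGFb2 and 534 and 549 with PBS. The other 9 summed to 380.1 and 367 with TGFb2 and to 406 and 338 with PBS, where the groups overlapped. Of 9 tested fibroblast and mesothelium markers Col1a1 rose, at 374 and 370 with TGFb2 and 144 and 142 with PBS (limma adjusted p = 0.0219). Dcn fell, at 319 and 256.5 with TGFb2 and 1130.5 and 747 with PBS (limma adjusted p = 0.0259). With these, 3 of the 9 (33.3%) had an unadjusted limma p under 0.05, against 11.6% of all tested probe sets. The summed signal of 11, which holds both changes, was 1775 and 1552.5 with TGFb2 and 2364 and 1700.2 with PBS. The part of these cells in the changes of Cd36 and Cxcl2 was not tested.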

How the data were processed

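The deposited intensities are linear MAS5 signals per the submitters' processing notes (version not given in the sources used here), in which perfect-match and mismatch probes are combined after background correction. Because the trimmed mean was 150.1 on every array, the values were not rescaled. Gene names came from the platform annotation. Signals were taken to log2(signal + 15), so changes of dim genes are understated. Those with a mean log2 level at or above the 40th percentile were tested (7453, after leaving out 66 controls). They were fitted with limma 3.58.1 in R 4.3.3 (eBayes with an intensity trend), two-sided, with Benjamini-Hochberg adjustment. Precision is limited by the number of arrays. Named were all members, from each pathway list at most 2 passing genes in either direction (otherwise the 2 with the largest difference) and passing markers. Tlr7, Mrc2, Olr1, Cxcl1 and Inpp5d were added after their values were seen. Members and lists were chosen with earlier results of these data known. Alternatives covered the added constant, normalization, filter, variance model, replicate block and leaving out each array. No scan date was given in the sources used here.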

Additional observations from a re-analysis of the deposited data

How the results depend on the processing

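No member passed under any of the 13 alternatives in limma, with 0 to 2 at an unadjusted p under 0.05. Cd180, Ly86, Myd88 and both Msr1 probe sets kept their direction under all 13. Without an array, Cd14 ran from -0.48 to 0.10, Tlr6 from -0.14 to 0.31, Relb from -0.30 to 0.20 (0.12 without TGFb2 replicate 1) and Nfkb2 from -0.13 to 0.060 (the highest without TGFb2 replicate 1, and 0.02 without PBS replicate 2), so these changed sign. Of all tested probe sets, 88 passed, against 57 with no added constant, 6 without the filter, 16 without the intensity trend and 11 to 42 without an array. Of the pathway genes, 2 passed, against 0 without the filter, 0 without the trend (15 at an unadjusted p under 0.05 in each) and 0 without any 1 array (12 to 20 unadjusted), and 3 with a robust variance, which added Dok2. The labels do not say what the replicate numbers share, and the differences between replicates correlated at 0.15 between groups. With the replicate block 320 probe sets, 10 pathway genes and 0 members passed, among the genes Itgam (adjusted p = 0.041), Unc93b1 (0.047), Dok2 (0.0058) and Dusp1 (0.0014). The causes were not tested. The number of arrays limits precision, and the median SE of a log2 difference was 0.21.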
